A study of Mus musculus with 7 samples.

Results

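The immediate early response genes examined here were *Fos*, *Fosb*, *Jun*, *Junb*, *Egr1*, *Egr2*, *Atf3*, *Ier2*, *Ier3* and *Dusp1*. They were taken as the array probes, control spots left out, whose transcript carries one of these names in RefSeq, which gave 10 of the 21367 genes that could be named. Each of the 10 genes had 1 probe, so they made up 10 of 39429 probes, and all 10 probes were bright enough to be tested among 25162. *Fos* was printed on 10 spots of each array. The probes that carry most of the results are A_52_P262219 for *Fos*, A_55_P2158990 for *Jun*, A_55_P2033362 for *Egr2*, A_52_P452689 for *Atf3*, A_51_P286488 for *Ier3* and A_51_P430900 for *Dusp1*. The genes and the lists around them were picked with earlier results of these data known.

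RNA came from the nasal cavity of female BALB/c mice that were 6 weeks old at the start. Exposed mice inhaled diesel exhaust particles (DEP) suspended in saline at 100 μg/m3, for 1 hour per day on 5 days per week, over 4 weeks or 8 weeks, and the control mice received saline. Each array carried DEP RNA labelled with Cy5 and control RNA labelled with Cy3, with 4 arrays at 4 weeks and 3 arrays at 8 weeks. The dyes were never exchanged, and all 4-week arrays lay on 1 slide and all 8-week arrays on another. A dye effect of a single probe therefore cannot be told apart from DEP in a ratio, and slide cannot be told apart from exposure time. How many mice stand behind an array, whether their RNA was pooled, and how long the controls of the 8-week arrays were kept on saline were not stated in the sources used here, so the tests measure only the spread between arrays.

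Immediate early genes are transcribed within minutes of a stimulus, without new protein synthesis, when kinase signals reach transcription factors that already sit at their promoters. *Fos* and *Jun* family proteins pair to form AP-1, the *Egr* genes encode zinc finger factors, and *Dusp1* encodes a phosphatase that switches MAP kinases off again. Their transcripts are short-lived and respond to cytokines, oxidative stress, neuronal activity and handling of the tissue.

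The promoters of 4 of the genes, *Fos*, *Atf3*, *Ier3* and *Dusp1*, are shown to give the start of these genes, where signals act. Those 4 were picked, so their motifs do not stand for the whole set. The sequences are those of RefSeq on GRCm38.p6, 250 bases up to the transcription start, read 5′ to 3′ on the strand of the gene. Capitals mark TGACGT, the core of the cAMP response element, on either strand, and TATAA, the letters that the TATA-binding protein reads, on either strand.
Fos, chr12:85473640-85473889, + strand: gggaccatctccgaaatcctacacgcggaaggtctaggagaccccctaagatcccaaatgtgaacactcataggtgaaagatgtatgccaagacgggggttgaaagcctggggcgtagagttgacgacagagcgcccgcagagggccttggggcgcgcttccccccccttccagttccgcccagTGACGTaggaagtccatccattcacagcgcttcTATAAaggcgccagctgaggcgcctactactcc
Atf3, chr1:191183334-191183583, - strand: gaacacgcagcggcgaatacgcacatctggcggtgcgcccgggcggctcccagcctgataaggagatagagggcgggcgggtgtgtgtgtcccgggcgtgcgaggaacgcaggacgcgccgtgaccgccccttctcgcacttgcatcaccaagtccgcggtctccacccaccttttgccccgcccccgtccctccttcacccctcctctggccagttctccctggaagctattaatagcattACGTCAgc
Ier3, chr17:35821463-35821712, + strand: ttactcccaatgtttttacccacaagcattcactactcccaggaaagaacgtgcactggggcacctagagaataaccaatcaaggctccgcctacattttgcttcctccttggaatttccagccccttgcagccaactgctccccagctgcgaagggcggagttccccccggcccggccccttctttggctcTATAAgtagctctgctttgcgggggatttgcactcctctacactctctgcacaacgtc
Dusp1, chr17:26508473-26508722, - strand: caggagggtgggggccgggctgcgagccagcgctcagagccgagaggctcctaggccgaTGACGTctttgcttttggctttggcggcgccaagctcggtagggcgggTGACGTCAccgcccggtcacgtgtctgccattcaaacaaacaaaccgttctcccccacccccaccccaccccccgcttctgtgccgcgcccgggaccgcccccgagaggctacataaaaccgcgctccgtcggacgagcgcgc

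In the *Fos* window TGACGT began 66 bases and TATAA 33 bases before the start. In the *Atf3* window TGACGT lay on the opposite strand and began 8 bases before the start. In the *Dusp1* window TGACGT began 191, 143 and 141 bases before the start, the last pair being overlapping matches of the 2 strands. The *Ier3* window held TATAA, 58 bases before the start, and no TGACGT. Of 32851 promoter windows of this length, 6.47% held TGACGT and 22.8% held TATAA on either strand. Of the 10 genes, 8 were in the promoter table, with *Egr1* and *Ier2* not among them. *Egr2* had 5 start windows there, of which 3 held TGACGT and 4 held a CArG box, the site of serum response factor, which 1.47% of all windows held. *Fosb*, *Jun* and *Junb* had 1 window each, which held neither TGACGT nor TATAA. The AP-1 site TGANTCA was in no window of the 8 genes and in 6.75% of all windows. A match is a description of letters, and binding was not measured.

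An array had 18601 to 25069 probes that stood clear of background for DEP RNA and 16985 to 26927 for control RNA. No spot was saturated. The values given are log2 ratios of DEP over control after background correction and loess within each array, and log2 intensities of each channel scaled between arrays. The background step adds the same constant to every signal, which weighs most on dim probes, so their changes are understated. The labelled tissue was checked by markers: all 8 markers of mature olfactory neurons were well above background on every array in both channels, as were at least 5 of 6 of motile ciliated epithelium, 6 of 7 of squamous epithelium and 7 of 7 of fast skeletal muscle, so the RNA came from a mixed tissue. At an adjusted p of 0.05, with the Benjamini-Hochberg adjustment made over the whole array, 37% of probes differed between DEP and control at 4 weeks and 36.1% at 8 weeks, with 20.8% and 18.8% higher and 16.2% and 17.4% lower. In RNA of whole tissue, fewer cells of a type and less RNA per cell cannot be told apart.

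At 4 weeks of exposure, *Fos*, *Ier3* and *Atf3* were lower in DEP-exposed nasal tissue than in control tissue, by 1.59-fold, 1.53-fold and 1.26-fold. None of the 10 genes was higher. The count of 3 lower genes among 10 stood beside 16.2% of all probes called lower. The median log2 ratio of the 10 genes was -0.12, against -0.00 over all probes tested. None of the 10 reached the thresholds of the study, an unadjusted p of at most 0.01 with a 2-fold change, which 1.12% of all probes did. At an unadjusted p under 0.05, 3 of the 10 passed, beside 47.1% of all probes.

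*Fos*, the AP-1 subunit that pairs with Jun proteins, had log2 ratios of DEP over control of -0.53, -0.61, -0.71 and -0.83 on replicates 1 to 4 at 4 weeks. Its log2 intensities were 7.65, 7.65, 7.71 and 7.86 in control tissue and 7.13, 7.04, 7.004 and 7.03 in DEP tissue. Every DEP value lay below every control value. The mean log2 ratio was -0.67 ± 0.13 (SD, n = 4), with a standard error of 0.066 in the fit and an adjusted p of 0.000267 by limma. The 10 spots of *Fos* gave the same sign throughout, with 40 of 40 spots below 0 over the 4 arrays. On replicates 1, 3 and 4, 1 control spot each was far brighter than the rest, with raw intensities of 404, 429 and 851 against array medians of 217.75, 209 and 200.5. With the median of the spots in place of their mean, chosen after seeing the data, the ratio at 4 weeks was -0.59 and kept its call.

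**Figure D1:**
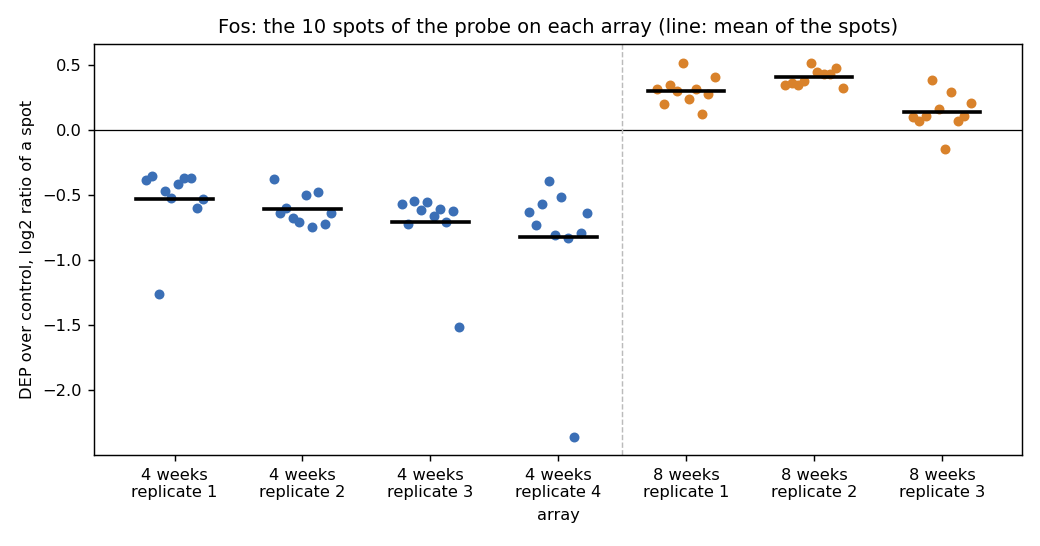
Log2 ratio of DEP over control (vertical axis) of each of the 10 *Fos* spots on each array (horizontal axis), with 4-week arrays in blue and 8-week arrays in orange and a line at the mean of the spots. All 40 spots at 4 weeks lie below 0, and 29 of 30 spots at 8 weeks lie above 0.

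*Ier3*, which encodes a small protein that acts on cell survival and ERK signalling, had log2 ratios of -0.74, -0.59, -0.52 and -0.60 on the 4-week arrays. Its control intensities spanned only 8.67 to 8.75 on the log2 scale, and its DEP intensities spanned 7.97 to 8.23. The groups did not overlap, and the mean ratio was -0.61 ± 0.093 (SD, n = 4), with an adjusted p of 0.000227 by limma. *Atf3*, a stress-induced factor of the ATF family that represses or activates its targets, had log2 ratios of -0.47, -0.28, -0.16 and -0.41. Its control values of 7.85 to 7.99 all lay above its DEP values of 7.46 to 7.83, although replicate 3 came close. The mean ratio was -0.33 ± 0.14 (SD, n = 4), with an adjusted p of 0.00616, which rose to 0.101 when the processed signals of the scanner software were used.

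The other 7 genes did not pass the test at 4 weeks. *Jun*, the main partner of Fos, had log2 ratios of 0.11, 0.04, 0.14 and -0.12. *Egr1*, a zinc finger factor induced by growth signals, had -0.07, -0.09, -0.24 and -0.09, and *Egr2*, its relative known from myelinating glia, had 0.11, -0.21, -0.09 and 0.10. *Dusp1* had -0.31, -0.07, -0.12 and 0.23. For *Jun*, *Egr2* and *Dusp1* the sign differed between arrays, and *Egr1* was below 0 on all 4 arrays at a mean of -0.12, with an adjusted p of 0.1604. *Egr1* was called lower, at -0.21 with an adjusted p of 0.0321, when arrays were centred on their median in place of loess. *Fosb*, a Fos relative, ranged from -0.21 to 0.23, and *Ier2*, a nuclear protein of unclear function, from -0.25 to 0.18.

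*Junb*, a Jun relative, could not be judged. Its single spot on replicate 1 read 8007 in the control channel, against 75.5 to 82.5 on the other 3 arrays at 4 weeks, which set the log2 ratio there to -5.70 against -0.42, -0.05 and -0.29 elsewhere. In DEP tissue the probe was well above background on 1 of 4 arrays at 4 weeks and 2 of 3 at 8 weeks. Without that spot, a choice made after seeing the data, the mean log2 ratio at 4 weeks was -0.26, with an adjusted p of 0.0816.

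At 8 weeks 5 of the genes were higher in DEP tissue than in control tissue. *Fos* was higher by 1.21-fold, *Jun* by 1.29-fold, *Egr2* by 1.37-fold, *Atf3* by 1.203-fold and *Dusp1* by 1.58-fold, and none of the 10 genes was lower. The 5 higher genes among 10 stood beside 18.8% of all probes called higher. The median log2 ratio of the 10 genes was 0.21, against -0.00 over all probes. None passed p of at most 0.01 with a 2-fold change, which 2.67% of probes did, and 7 of the 10 had an unadjusted p under 0.05, beside 45.8% of all probes.

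*Fos* had log2 ratios of 0.30, 0.40 and 0.14 on replicates 1 to 3 at 8 weeks, from DEP intensities of 7.29, 7.37 and 7.22 and control intensities of 6.99, 6.97 and 7.08. The groups did not overlap, and of 30 spots 29 were above 0, with the exception on replicate 3. The mean was 0.28 ± 0.14 (SD, n = 3), with an adjusted p of 0.0234 by limma, which rose to 0.0861 without replicate 1 and to 0.146 without replicate 2. *Jun* had ratios of 0.34, 0.49 and 0.29. Its DEP intensities of 11.06 to 11.20 all lay above its control intensities of 10.71 to 10.78. The mean was 0.37 ± 0.11 (SD, n = 3), with an adjusted p of 0.00486.

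*Egr2* had log2 ratios of 0.45, 0.36 and 0.54, with DEP intensities of 6.88 to 7.15 and control intensities of 6.43 to 6.69, which did not overlap. Its mean ratio was 0.45 ± 0.088 (SD, n = 3), with an adjusted p of 0.00307 by limma, on a dim probe whose control spot was well above background on 2 of 3 arrays. *Atf3* had ratios of 0.32, 0.14 and 0.34, again with every DEP value above every control value. Its mean was 0.27 ± 0.11 (SD, n = 3), with an adjusted p of 0.0265, and of 0.107 without replicate 1 and 0.119 without replicate 3. The size of these changes depended on the background correction and signals used. With the processed signals of the scanner software, *Egr2* stood at 1.12 (adjusted p = 0.000513), past the thresholds of 0.01 and 2-fold beside 6.86% of probes, *Atf3* at 0.70 (adjusted p = 0.0214) and *Fos* at 0.57 (adjusted p = 0.00733). With a normexp offset of 10 in place of 50, *Egr2* stood at 0.72 and *Atf3* at 0.41.

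*Dusp1*, the MAP kinase phosphatase, had log2 ratios of 0.28, 1.04 and 0.66 at 8 weeks. Its DEP intensities of 8.995 to 9.18 lay above its control intensities of 8.14, 8.34 and 8.74, with the control of replicate 1 the closest to them. The spread was the widest of the 5 genes, at a mean ratio of 0.66 ± 0.38 (SD, n = 3) and an adjusted p of 0.0102 by limma. Without replicate 2 the mean was 0.47, with an adjusted p of 0.0647.

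The remaining genes did not pass the test at 8 weeks. *Ier3*, which was lower at 4 weeks, had ratios of 0.23, 0.01 and 0.24 at a mean of 0.16, with an adjusted p of 0.0990. *Egr1* had ratios of -0.00, 0.09 and 0.33. *Ier2* was below 0 on all 3 arrays, at -0.02, -0.53 and -0.28, with an adjusted p of 0.0945 that reached 0.0487 without replicate 1. *Fosb* ranged from -0.08 to 0.14 and *Junb* from -0.20 to 0.18.

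The calls at 8 weeks depended on how the arrays were scaled. With each array centred on its median in place of loess, the median ratio of all probes at 8 weeks was -0.11, and 11.2% of probes were called higher and 32.9% lower, against 18.8% and 17.4%. Of the 5 genes, only *Egr2* then kept its call, and *Jun* stood at 0.05, *Fos* at 0.20, *Atf3* at 0.22 and *Dusp1* at 0.40, all still above 0. At 4 weeks the same centring kept *Fos*, *Ier3* and *Atf3* lower, with 15% of probes higher and 20.7% lower.

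**Figure D2:**
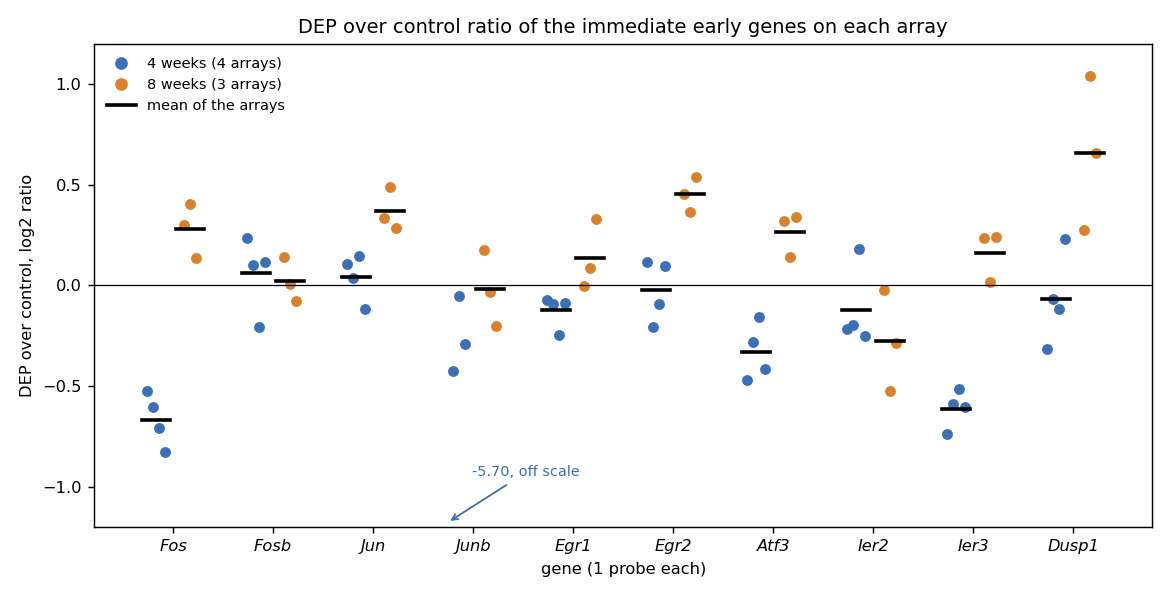
Log2 ratio of DEP over control (vertical axis) of the 10 genes (horizontal axis) on each array, with the 4 arrays of 4 weeks in blue, the 3 arrays of 8 weeks in orange, and a line at the mean. *Fos*, *Atf3* and *Ier3* lie below 0 at 4 weeks and above 0 at 8 weeks on every array; the *Junb* value of replicate 1 at 4 weeks, -5.70, is off the scale and no mean is drawn for that group.

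The ratio of DEP over control was therefore compared between the exposure times. It was higher at 8 weeks than at 4 weeks for 6 of the 10 genes and lower for none, beside 13.9% of all probes called higher and 16.1% lower, 30% in all. None passed p of at most 0.01 with a 2-fold change, which 2.79% of probes did, and 7 had an unadjusted p under 0.05, beside 41.7% of probes. The median difference of the 10 genes was 0.54 on the log2 scale, against 0.01 over all probes, *Junb* with its bright spot included. The arrays of both times did not overlap for 7 of the 10 genes, the called genes and *Egr1*, beside 41.3% of all probes.

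Among the called genes *Fos* differed most, by 0.95 with a standard error of 0.10 and an adjusted p of 0.000526 by limma, which is a 1.93-fold change of the ratio. *Ier3* differed by 0.77 (adjusted p = 0.000768), *Atf3* by 0.60 (adjusted p = 0.00386) and *Egr2* by 0.47 (adjusted p = 0.0110). These 4 calls held under every alternative in which the probe was tested, but the sizes did not. With processed signals *Fos* differed by 1.51, *Egr2* by 1.08 and *Atf3* by 1.06, and these 3 then passed p of at most 0.01 with a 2-fold change, beside 10.2% of probes. With a normexp offset of 10 *Egr2* differed by 0.75. *Fos* alone passed those thresholds with that offset, beside 4.39% of probes, and without replicate 3 of 8 weeks, beside 2.54%. *Dusp1* differed by 0.73 with an adjusted p of 0.0256, and it lost the call without replicate 1, 2 or 3 of 4 weeks or replicate 2 or 3 of 8 weeks, with adjusted p-values of up to 0.0834. *Jun* differed by 0.33 with an adjusted p of 0.0301, and it lost the call in 8 of 15 alternatives, among them leaving out replicate 2 or 4 of 4 weeks or replicate 1 or 2 of 8 weeks, and median centring, where the difference was 0.12.

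Each channel was then followed over time, on intensities scaled between arrays. These comparisons use the same arrays as the ratios, so they are not independent of them. In control tissue 6 of the 10 genes were lower at 8 weeks than at 4 weeks and none was higher, beside 11.1% of all probes lower and 20.9% higher, 31.9% in all. The median difference of the 10 genes was -0.43, against 0.02 over all probes, *Junb* with its bright control spot included. Through that spot *Junb* entered the median at -1.64. The arrays of both times did not overlap for 6 genes, beside 43% of all probes. *Atf3* was 2.20-fold lower, at a log2 difference of -1.14 (adjusted p = 7.46e-05), from 7.85 to 7.99 at 4 weeks to 6.66 to 6.90 at 8 weeks. It alone passed p of at most 0.01 with a 2-fold change, which 2.4% of probes did, and 6 genes had an unadjusted p under 0.05, beside 42% of probes. With processed signals *Atf3* stood at -1.80 and *Egr2* at -0.59 in control tissue, and *Fos*, *Atf3* and *Ier3* passed those thresholds, beside 10.7% of probes.

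*Ier3* in control tissue was lower at 8 weeks by 1.86-fold, at -0.90 (adjusted p = 6.07e-05), and *Fos* by 1.63-fold, at -0.71 (adjusted p = 0.000384). For both, every control array at 8 weeks lay below every control array at 4 weeks. *Dusp1* fell by 0.50 (adjusted p = 0.0339), *Egr2* by 0.36 (adjusted p = 0.0155) and *Jun* by 0.33 (adjusted p = 0.0304) in control tissue. The *Jun* call was lost without replicate 2 of 4 weeks or any 1 array of 8 weeks, and the *Dusp1* call without any 1 array of 4 weeks or replicate 2 or 3 of 8 weeks, with adjusted p-values of up to 0.1003 and 0.110. *Egr1*, *Fosb* and *Ier2* had differences of 0.14, 0.04 and -0.08 that did not pass the test.

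In DEP tissue 2 genes were higher and 1 lower at 8 weeks than at 4 weeks, beside 22.6% of all probes higher and 17.7% lower, 40.3% in all. *Atf3* was lower at 8 weeks by 1.45-fold, at -0.54 (adjusted p = 0.00185), from 7.46 to 7.83 down to 6.98 to 7.18. *Fos* was higher by 0.24 (adjusted p = 0.0400) and *Egr1* by 0.40 (adjusted p = 0.0439), and each of these calls was lost in 9 alternatives, of 13 and 12. With processed signals *Fos* stood at 0.41. Leaving out any of replicates 2, 3 and 4 of 4 weeks or replicate 2 of 8 weeks ended both, at adjusted p-values of up to 0.171 and 0.102, and so did leaving out replicate 1 of 8 weeks for *Fos* (0.0835) and replicate 3 for *Egr1* (0.168). The median of the 10 genes was 0.00, against 0.01 over all probes. The arrays of both times did not overlap for 3 genes, beside 45.2% of all probes, and no gene passed p of at most 0.01 with a 2-fold change, beside 4.71% of probes, while 4 had an unadjusted p under 0.05, beside 48.9%. *Ier3* was at 7.97 to 8.23 at 4 weeks and 7.91 to 8.04 at 8 weeks in DEP tissue, which overlap, with a difference of -0.12 (adjusted p = 0.304).

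Placed in order of mean log2 intensity, *Fos* ran from control at 8 weeks (7.01 ± 0.061, n = 3) and DEP at 4 weeks (7.05 ± 0.052, n = 4), whose arrays overlapped, to DEP at 8 weeks (7.29 ± 0.077, n = 3) and control at 4 weeks (7.72 ± 0.097, n = 4), with SD given after each mean. *Ier3* ran from control at 8 weeks (7.81 ± 0.080) through DEP at 8 weeks (7.98 ± 0.061) and DEP at 4 weeks (8.10 ± 0.11), which overlapped, to control at 4 weeks (8.71 ± 0.033). *Atf3* ran from control at 8 weeks (6.80 ± 0.12) through DEP at 8 weeks (7.07 ± 0.10) and DEP at 4 weeks (7.61 ± 0.16) to control at 4 weeks (7.94 ± 0.065), with no overlap between neighbours. In all 3 genes the control tissue of the 4-week arrays was the highest of the 4 conditions and the control tissue of the 8-week arrays had the lowest mean. *Dusp1*, *Egr2* and *Jun* also had their lowest mean in control tissue of the 8-week arrays, at 8.41 ± 0.31, 6.58 ± 0.13 and 10.75 ± 0.035, and their other 3 conditions overlapped. Such an order sets Cy3 against Cy5 and the slides against each other. Effects of dye and slide on a probe cannot be told apart from it.

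**Figure D3:**
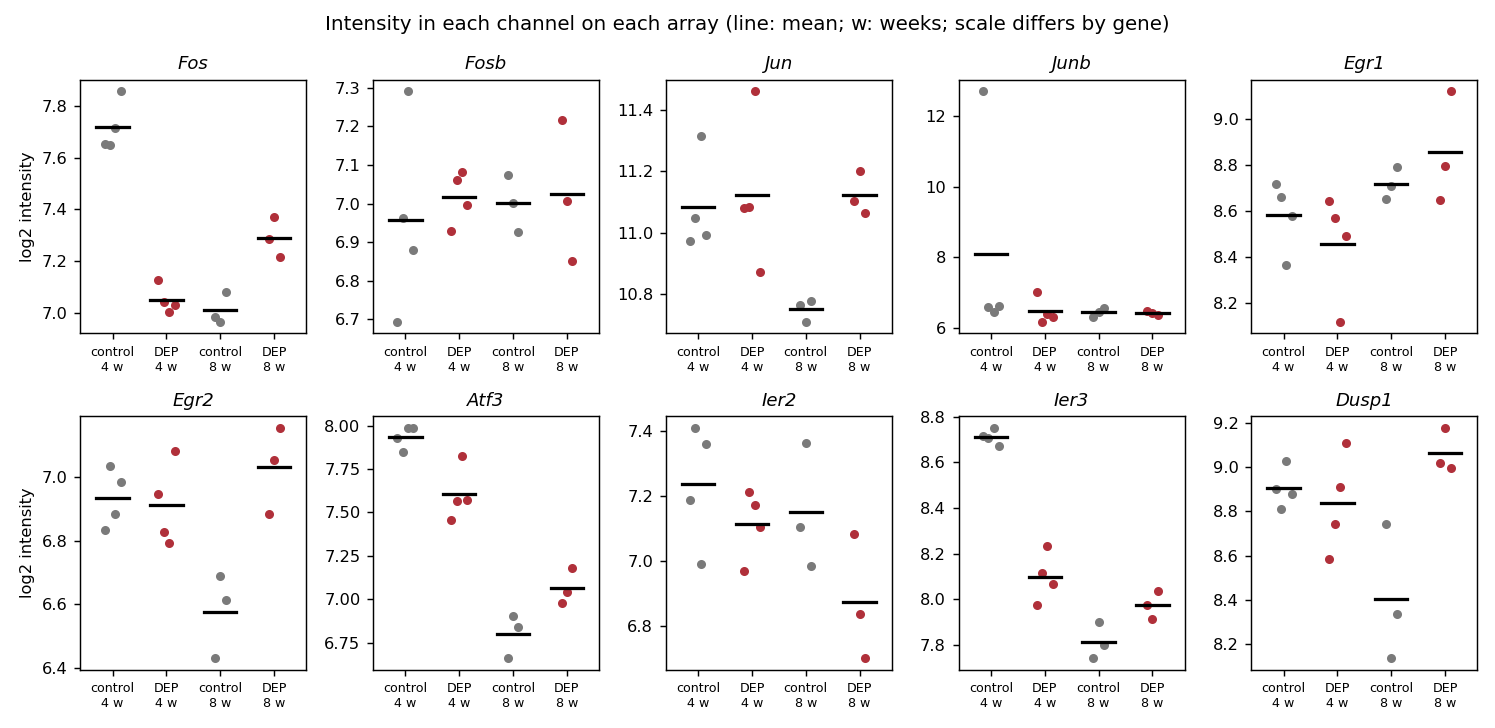
Log2 intensity (vertical axis, with its own scale for each gene) of the 10 genes in control tissue (grey) and DEP tissue (red) at 4 weeks and 8 weeks, 1 point per array with a line at the mean. Control tissue at 4 weeks is highest for *Fos*, *Atf3* and *Ier3*, and control tissue at 8 weeks is lowest for *Jun*, *Egr2* and *Dusp1*.

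**Figure D4:**
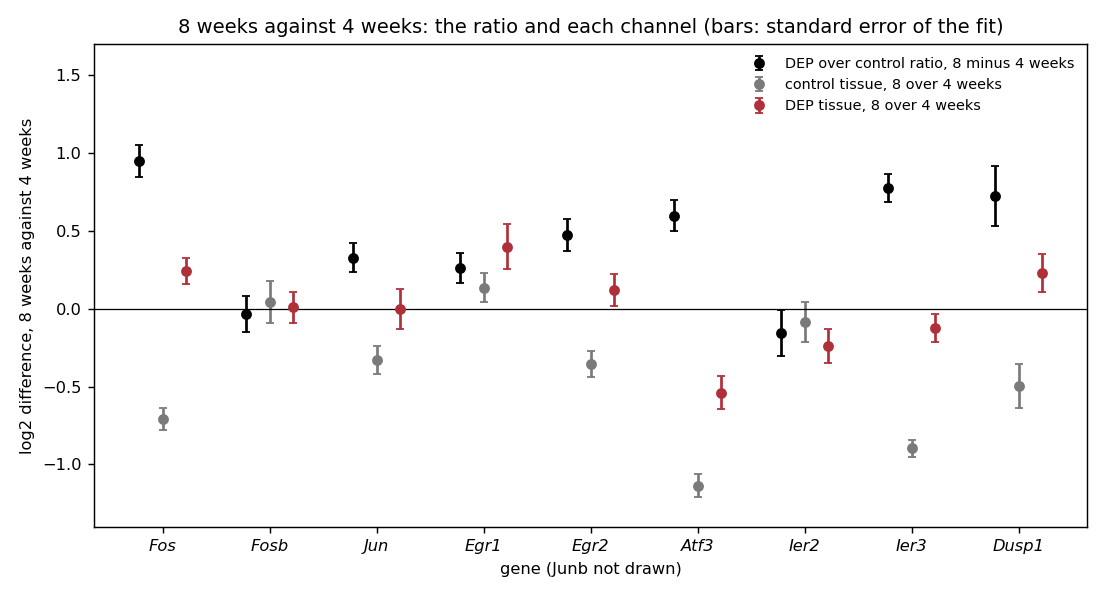
Log2 difference between 8 weeks and 4 weeks (vertical axis) for 9 of the genes (horizontal axis), in the ratio of DEP over control (black), in control tissue (grey) and in DEP tissue (red), with bars of 1 standard error of the limma fit. For *Fos*, *Jun*, *Egr2*, *Atf3*, *Ier3* and *Dusp1* the ratio lies above 0 and control tissue below 0.

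The 10 genes did not all vary together. Over the 7 arrays, the ratio of *Fos* had a Pearson correlation of 0.93 with that of *Jun*, 0.91 with *Ier3* and 0.88 with *Atf3*, but of -0.03 with *Fosb* and -0.42 with *Ier2*. These values are a description, since the arrays fall into the groups of the slides. Among 2367 genes outside the 10 whose ratio ranged over at least 1 on the log2 scale, the ratios most like those of *Fos* over the 7 arrays were those of *Nfil3*, *Dcc*, *Rhox8*, *Crispld2* and *Dcaf12l2*, with correlations between 0.994 and 0.998. *Nfil3*, a bZIP factor that works in the circadian clock and in immune cells, had a mean ratio of -0.93 at 4 weeks and 1.24 at 8 weeks. *Crispld2* had -0.62 and 0.43. *Dcc* (0.36 and 1.59), *Rhox8* (0.29 and 1.57) and *Dcaf12l2* (0.62 and 1.51) were above 0 at both times. They shared with *Fos* the higher ratio at 8 weeks, but not its sign at 4 weeks.

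The wider immediate early program was read from lists around the 10 genes. These lists were chosen with earlier results of the data known, so their counts are a description. Of 23 other immediate early transcription factors, 19 were tested, and at 4 weeks 11 were lower and 3 higher, with a median ratio of -0.29, beside 16.2% of all probes lower and 20.8% higher. At 8 weeks 11 were higher and 4 lower, with a median of 0.27, beside 18.8% and 17.4% of all probes. The difference between times was higher for 11 and lower for 4, with a median of 0.59, beside 13.9% and 16.1%. In control tissue 7 of the 19 were lower at 8 weeks than at 4 weeks and 3 higher, with a median of -0.15. All probes had 11.1% lower and 20.9% higher there. In DEP tissue 9 of the 19 were higher and 4 lower, with a median of 0.30, beside 22.6% and 17.7% of all probes. *Nr4a2*, an orphan nuclear receptor, ranged from 1.83 to 2.00 at 8 weeks, where it was 3.75-fold higher (adjusted p = 1.56e-06), against -0.25 to -0.05 at 4 weeks. *Cebpd*, an acute phase factor, ranged from -1.63 to -1.45 at 4 weeks and from 0.10 to 0.33 at 8 weeks, and *Nfil3* from -1.38 to -0.67 and from 0.93 to 1.43. In DEP tissue *Nr4a2* was higher at 8 weeks than at 4 weeks by 2.02, and in control tissue it differed by -0.07 (adjusted p = 0.521). *Cebpd* differed by -1.85 in control tissue and by -0.05 in DEP tissue.

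Of 27 other immediate early genes that are not transcription factors, 25 were tested, and 13 were lower and 1 higher at 4 weeks, with a median of -0.27, beside 16.2% of all probes lower and 20.8% higher. At 8 weeks 9 were higher and 2 lower, with a median of 0.06, beside 18.8% and 17.4%. *Rgs2*, a regulator of G protein signals, had a mean ratio of -0.79 at 4 weeks and 0.65 at 8 weeks, *Ccn2*, a matricellular growth factor, of -0.76 and 0.28, and *Gadd45b*, a stress sensor upstream of p38, of -0.30 and 0.65. In control tissue 13 of the 25 were lower at 8 weeks than at 4 weeks and none was higher, with a median of -0.21, beside 11.1% of all probes lower and 20.9% higher. In DEP tissue 4 were higher and 3 lower, with a median of -0.02, both counts being smaller shares than the 22.6% and 17.7% of all probes.

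Of 12 tested genes known as AP-1 targets, 9 were lower at 4 weeks and none was higher, at a median of -0.64, beside 16.2% of all probes lower and 20.8% higher. *Il6*, the interleukin, ranged from -2.25 to -1.78 at 4 weeks, *Cxcl1*, a neutrophil chemokine, from -2.13 to -1.82, and *Mmp13*, a collagenase, from -1.54 to -1.24. At 8 weeks 1 was higher and 3 lower, at a median of 0.03, beside 18.8% and 17.4% of all probes. *Il6* then stood at a mean ratio of 0.09 (adjusted p = 0.595), *Cxcl1* at 0.09 (adjusted p = 0.399) and *Mmp13* at 0.44 (adjusted p = 0.00645). Between 4 weeks and 8 weeks *Il6* fell by 3.42 on the log2 scale in control tissue and by 1.24 in DEP tissue (adjusted p = 5.09e-07 and 2.78e-05). In control tissue 7 of the 12 genes were lower at 8 weeks and none higher, beside 11.1% and 20.9% of all probes, and in DEP tissue 2 were higher and 2 lower, beside 22.6% and 17.7%.

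The lists of the upstream path, the partners and the feedback inhibitors had called genes in both directions at both times, as did all probes, of which 20.8% were higher and 16.2% lower at 4 weeks and 18.8% and 17.4% at 8 weeks. Of 20 tested genes of the MAP kinase and growth signal path, 4 were higher and 5 lower at 4 weeks, and 3 higher and 5 lower at 8 weeks. *Elk1*, the ternary complex factor that drives *Fos* and *Egr1* with serum response factor, was higher at both times, at 1.18 and 0.98, and its ratio did not pass the test of the difference between times (adjusted p = 0.117). *Egfr*, a growth factor receptor, was at -0.09 at 4 weeks and 0.60 at 8 weeks, and *Mapk3*, which encodes ERK1, at 0.11 and -0.48. Of 13 AP-1 and ATF partners, 4 were higher and 3 lower at 4 weeks and 3 higher and 2 lower at 8 weeks. Among them *Maf* went from -0.19 to 0.95 and *Atf5* from 0.52 to -0.40.

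The list labelled ERK feedback inhibitors held MAP kinase phosphatases, the class of *Dusp1*, and *Spry* and *Spred* genes. It was not limited to genes that act on ERK, so its counts do not stand for ERK feedback alone. Of its 11 tested genes, 4 were higher and 2 lower at 4 weeks. At 8 weeks 3 were higher and 2 lower, with both times read beside the same shares of all probes. *Dusp2*, a nuclear phosphatase of immune cells, was at -0.33 at 4 weeks and 0.90 at 8 weeks. *Dusp6*, a cytoplasmic ERK phosphatase, was at -0.03 and 0.54, and *Dusp4*, its nuclear relative, at -0.17 and -0.70. *Dusp2* and *Dusp6* thus had the higher ratio at 8 weeks and *Dusp4* the lower, each past the test of the difference (adjusted p = 0.00113, 0.0137 and 0.00162).

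**Figure D5:**
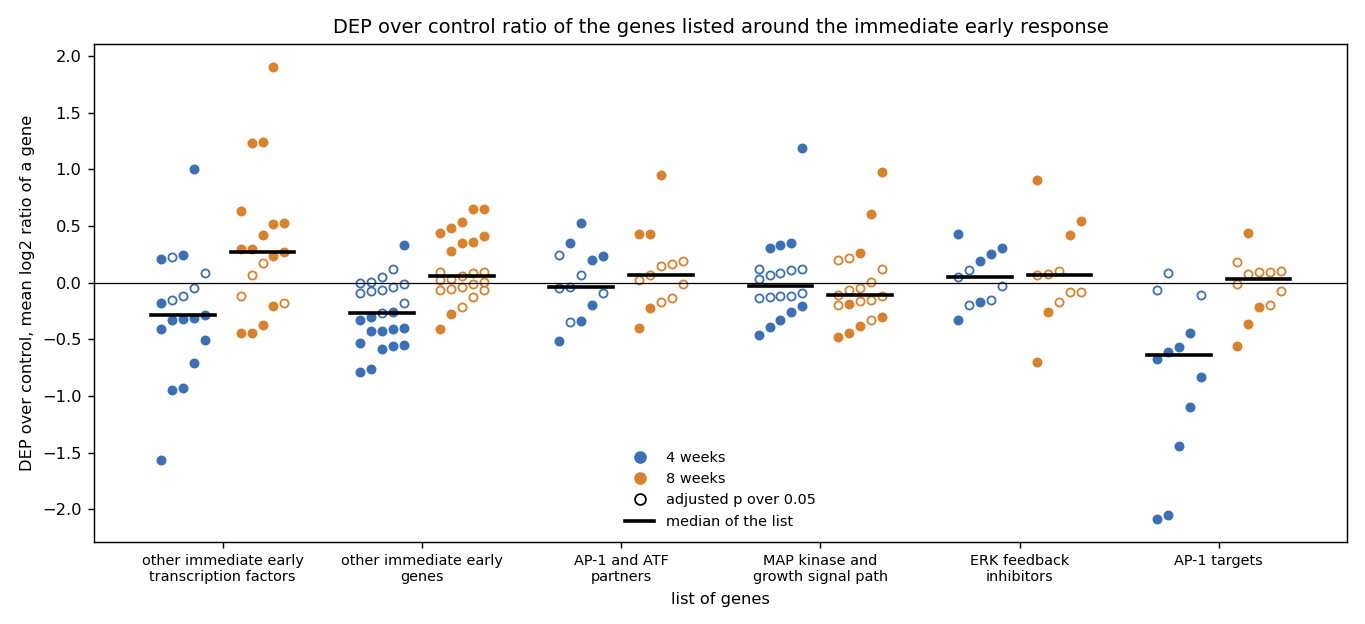
Mean log2 ratio of DEP over control (vertical axis) of each tested gene in 6 lists (horizontal axis), at 4 weeks in blue and 8 weeks in orange, filled where the limma adjusted p is at most 0.05, with a line at the median of the list. The lists of other immediate early genes and of AP-1 targets have medians of -0.29, -0.27 and -0.64 at 4 weeks, and of 0.27, 0.06 and 0.03 at 8 weeks.

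Markers of several cell types differed in these comparisons, read beside the 37% of all probes called at 4 weeks and 36.1% at 8 weeks. By direction, 20.8% of all probes were higher and 16.2% lower at 4 weeks, and 18.8% and 17.4% at 8 weeks. For mature olfactory neurons, 6 of 8 markers were higher in DEP tissue at 4 weeks, at a median of 0.44, and 7 of 8 lower at 8 weeks, at a median of -0.58. The log2 of their summed intensity spanned 16.34 to 16.54 in control tissue and 17.19 to 17.33 in DEP tissue at 4 weeks, and 17.03 to 17.22 in control tissue and 16.58 to 16.62 in DEP tissue at 8 weeks. Control tissue at 4 weeks, where *Fos* was highest, had the lowest of these levels, and the part of these neurons in the result was not tested. Squamous epithelium markers had 6 of 7 lower at 4 weeks, and 2 higher and 3 lower at 8 weeks. Of the 7, 4 had a higher ratio at 8 weeks than at 4 weeks and none a lower one, beside 13.9% and 16.1% of all probes. The summed levels of the squamous markers were 14.23 to 14.41, 14.03 to 14.29, 14.41 to 14.54 and 14.48 to 14.78 in control and DEP tissue at 4 weeks and then at 8 weeks. In the same order, the means of their log2 intensities were 10.30 to 10.36, 9.74 to 9.81, 10.13 to 10.29 and 10.07 to 10.32. Neutrophil markers had 6 of 10 lower at each time, with 1 higher at 4 weeks and 2 at 8 weeks, at medians of -0.67 and -0.82. Their summed levels, on which the brightest markers weigh most, were 15.14 to 15.54 over all groups. The means of their log2 intensities were lower in DEP tissue than in control tissue. They were 9.48 to 9.54 against 9.88 to 10.03 at 4 weeks, and 9.34 to 9.46 against 10.03 to 10.06 at 8 weeks. Erythroid markers had 2 of 4 higher at 4 weeks and 4 of 4 lower at 8 weeks, and their summed level was 12.03 to 12.33 at 4 weeks over both tissues, 13.31 to 13.43 in control tissue and 12.73 to 12.84 in DEP tissue at 8 weeks.

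Of 6 ciliated epithelium markers 4 were higher at 4 weeks and 2 at 8 weeks, of 7 macrophage markers 2 were lower at 4 weeks and 1 was higher and 1 lower at 8 weeks, of 7 skeletal muscle markers 1 was higher and 2 lower at 4 weeks and 1 higher and 5 lower at 8 weeks, and of 4 tested endothelium markers 1 was higher and 2 lower at 4 weeks and none passed at 8 weeks. The macrophage counts were smaller shares than those of all probes. The endothelial *Tek* was too dim to be tested. The part of these cell types in the levels of the immediate early genes was not tested.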

How the data were processed

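Total RNA from nasal cavity of DEP-exposed and control mice was measured on 7 Agilent mouse 4x44K V2 arrays of 2 colours, and samples were grouped by exposure time from their titles. The authors deposited 1 output file per array, written by Feature Extraction 10.10.1.1, holding the raw median intensity of the spots and of the area around them, and processed intensity values after background subtraction and dye normalization. The GeneSpring normalization and the ExDEGA selection of the study are not part of these files, and no pooled value was used.

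In R 4.3.3 with limma 3.58.1, the normexp method (offset 50) was used for the background, which pulls the ratios of dim probes towards 0. Its parameters were fitted without the spots that the scanner software marks as background outliers. Loess was run on the log2 ratios of each array. Spots flagged for uneven signal were dropped, and the spots of 1 probe were averaged. Channel intensities were further scaled between arrays by Aquantile. The test took in probes that 3 or more of the 7 arrays showed clear of background for DEP or control RNA. Of 39429 probes, 28330 were named through RefSeq. One linear model with a mean per time and limma's moderated test was used for the ratios, and one per channel for the intensities, with Benjamini-Hochberg adjustment over the 25162 probes tested and calls at 0.05. The members and lists were chosen with earlier results of these data known. All 10 members were named, and from each list at most the 3 genes with the largest ratio past the test. Single genes that the rule would name but that are withheld here are not reported, and the counts of their lists include them. The steps were tested on simulated arrays with 200 probes changed by 1 on the log2 scale at 4 weeks, of which 97.5% were recovered, with 0.0481% of the unchanged probes called among 25162. The median size recovered was 0.76. The simulated arrays had the same noise for every probe and no probe-specific dye effect or slide effect. Changes smaller than 1 were not simulated, so the test does not show how well such changes are called.

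Same-numbered arrays of the 2 times had correlations of -0.0066, -0.0077 and 0.0164 of their deviations, beside -0.05 to 0.07 for arrays of unlike number. The numbers were therefore not used to pair arrays, although so few pairs cannot exclude a pairing. The alternatives were other backgrounds, normalizations, filters and offsets, the processed signals, single arrays left out, the replicate block, and the test that the methods name at p of at most 0.01 with a 2-fold change. The median of the *Fos* spots and the removal of 1 *Junb* spot were added after seeing the data. Precision depended on the number of arrays and also on the probe. The standard error of the ratio at 4 weeks was 0.058 for *Ier3* and 0.85 for *Junb* with its bright spot.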

Additional observations from a re-analysis of the deposited data

Results flagged for a closer look

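Among 30 values of the 10 genes at 4 weeks (the ratio and each channel's intensity), 4 held a single array far from the other 3, and chance alone gives about 1 such value in 20. *Junb* on replicate 1 had a log2 ratio of -5.7 and a control log2 intensity of 12.7, against -0.42 to -0.05 and 6.44 to 6.60 on the other arrays, from 1 bright spot. *Egr1* on replicate 3 had a log2 ratio of -0.24, against -0.09 to -0.07. *Ier2* on replicate 3 had a log2 ratio of 0.18, against -0.25 to -0.20.

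The DEP over control ratio differed between 8 weeks and 4 weeks, by limma's test of the difference itself, for *Fos* (0.95), *Ier3* (0.77), *Dusp1* (0.73), *Atf3* (0.6), *Egr2* (0.47) and *Jun* (0.33), all in log2 units and all higher at 8 weeks. In these differences the slide cannot be separated from the time of exposure.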

How the results depend on the processing

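Over all alternatives, called values of the 10 genes kept their call in 268 cases and lost it in 61, always with the same direction, and values that were not called changed sign in 26 cases and gained a call in 5. The 3 genes lower at 4 weeks numbered 3 without any 1 array. Without 1 array, 3 to 5 genes were called at 8 weeks (3 without replicate 2, and 3 higher with *Ier2* lower without replicate 1), 4 to 5 for the difference between times, 4 to 5 in control tissue over time and 1 to 4 in DEP tissue over time. Of the 5 genes called at 8 weeks, 3 were called with normexp fitted on all spots, 1 with median centring and 2 with the methods' test after adjustment, and 0 members passed that test's thresholds of p 0.01 and 2-fold at either time, as by limma at those thresholds. In DEP tissue over time, 1 gene in place of 3 was called with normexp on all spots. The replicate number as a block, for which no pairing was seen, left 5 genes called for the difference, 4 in control tissue and 1 in DEP tissue. Processed signals moved the median of all probes to 0.09 at 4 weeks (30.4% higher and 14.1% lower), to -0.12 for the difference between times (12.6% and 25%), where 5 members were still higher, and to 0.13 in control tissue over time. Median centring gave 8% higher and 20.7% lower for the difference, and quantile scaling 20.7% and 21.7% in DEP tissue over time. Taking the mean over the probes of a gene could change nothing, since each gene had 1 probe. Signs that turned were of values that had not passed the test. They were *Egr2* at 4 weeks (0.025 with normexp on all spots, 0.043 with processed signals), *Jun* at 4 weeks (-0.070 with median centring), *Fosb* at 8 weeks (-0.012 with processed signals, -0.028 with centring), and with centring at 8 weeks *Junb* (0.025), *Egr1* (-0.13) and *Ier3* (-0.024). In DEP tissue over time, *Jun* turned with normexp on all spots (0.00995) and with quantile scaling (0.011), *Fosb* with quantile scaling (-0.064) and *Junb* with processed signals (0.033). Leaving out single arrays, the values spanned 0 at 4 weeks for *Egr2* (-0.067 to 0.040) and *Dusp1* (-0.17 to 0.015), at 8 weeks for *Fosb* (-0.035 to 0.074) and *Junb* (-0.12 to 0.072), in the difference for *Fosb* (-0.13 to 0.022), in control tissue for *Fosb* (-0.043 to 0.16), and in DEP tissue for *Fosb* (-0.088 to 0.095), *Jun* (-0.086 to 0.11) and *Junb* (-0.14 to 0.13). The causes were not tested. Probes of *Junb*, *Fosb* and *Egr2* were near background, and a change in them was not detectable below their spread. The *Fos* and *Atf3* probes were well above background on every array but also dim at 8 weeks. Their raw medians at 8 weeks were 118.75 to 155.25 and 106 to 128.5, and those of negative control spots were 54 to 64. *Fos* in DEP tissue was as dim at 4 weeks, with raw medians of 115.25 to 142.75 and negative control spots at 62 to 67 in that channel.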
